A study of Homo sapiens with 6 samples.

Results

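The metallothionein cluster of human chromosome 16 codes for small cysteine-rich proteins that bind zinc, copper and cadmium. Its members were taken as the array features whose platform annotation gives exactly 1 gene symbol and that symbol is MT1B, MT1E, MT1F, MT1G, MT1H, MT1M, MT1X, MT2A or MT3. All 9 genes were measured, by 11 features, among 16704 genes with such a feature. MT2A had 3 features, of which the one with the highest mean was kept, and the others are given beside it. In the RefSeq annotation of GRCh38.p14 the 9 genes lie on chromosome 16 between positions 56589528 and 56684196, a stretch of 94.7 kb that also holds 3 measured MT1 pseudogenes. MT1A, which lies in the same stretch, was not analysed here.

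The RNA came from LNCaP, an androgen-responsive human prostate cancer line. Cells had been stably transfected with the siLentGene-2 vector, selected by neomycin resistance, and carried a short hairpin RNA either against MBD2 or of scrambled sequence. MBD2 is a reader of methylated CpG that brings the NuRD repressor complex to DNA. The control group was 3 scrambled clones and the knockdown group 3 MBD2 clones, grown in the same medium, with 1 Affymetrix human Gene ST array of cytoplasmic RNA for each clone. The vector and its selection are shared by both groups, and no untransfected cells enter the comparison. The comparison asks which genes differ in expression when MBD2 is reduced.

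Metallothioneins buffer free zinc and copper and take up toxic metals and oxidants through their cysteine thiols. When zinc or cadmium rises in the cell, the transcription factor MTF1 binds short metal response elements upstream of the MT1 and MT2A genes and switches them on, and glucocorticoids induce several of them as well. MT3 differs from the others in being mainly a brain gene that responds little to metals. Normal prostate epithelium stores high amounts of zinc, and methylation of the MT1G promoter has been described in prostate and other cancers. Methylation was not measured in these arrays.

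The values are log2 expression values made by the authors with RMA, which brings all arrays to a common distribution. Array medians over genes lay between 6.31 and 6.33, lower quartiles between 4.68 and 4.81 and upper quartiles between 7.79 and 7.87. Knockdown clone 1 had the narrowest distribution (SD over genes 2.00 against 2.05 to 2.07), and knockdown clones 2 and 3 were the most alike pair of arrays (SD of their difference 0.185). MBD2 stood at 8.73, 9.24 and 9.20 in control clones 1, 2 and 3 and at 7.68, 7.84 and 7.81 in the knockdown clones (limma, adjusted p = 0.111). All 6 measured luminal prostate markers lay above the upper quartile of every array. The 17 measured markers of basal epithelium, stroma, endothelium and leukocytes had 0 members above that quartile in all arrays, and 16 of them, all but the collagen gene COL1A1, lay below the array medians throughout. In such bulk RNA, fewer cells with a transcript and less transcript per cell cannot be told apart. The number of arrays, 3 a group, limits the precision.

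Of the 9 metallothioneins, 8 had a lower mean in the MBD2 knockdown clones, as did 51.3% of all genes. Their levels lay between 61.4% of control for MT1X and 86.9% for MT1E, while MT3 stood at 104%. The median log2 fold change of the 9 was -0.26, against -0.0043 over all genes. None passed an adjusted p of 0.05 in limma's moderated test, nor did any of the 16704 genes (0% called), of which 1568 had an unadjusted p under 0.05. At an unadjusted p under 0.05 there were 3 lower members, MT1X, MT2A and MT1G, where 5.45% of all genes were lower at that level. The 3 control clones differed among themselves by more than the group difference in all 9 members, as they did in 76.1% of all genes. Only in MT1X, among the 9, did the knockdown clones all lie below the controls, which held for 8.87% of all genes.

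MT2A codes for the form that is most widely expressed in human tissues. Its log2 values were 12.93, 12.63 and 12.22 in control clones 1, 2 and 3, and 12.12, 12.32 and 12.02 in knockdown clones 1, 2 and 3. Control clones 1 and 2 were the highest, and control clone 3 lay between knockdown clones 1 and 2, so the groups overlapped. The means were 12.59 ± 0.35 and 12.15 ± 0.15 (SD, n = 3 each). They differed by -0.44 on the log2 scale (SE 0.18, 95% interval -0.85 to -0.03; limma, adjusted p = 0.502). Both other features with the symbol MT2A had nearly the same pattern, with log2 fold changes of -0.40 and -0.46.

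MT1X, a metal-inducible MT1 gene at the distal end of the cluster, had the largest difference of the 9. It was measured at 10.52, 10.06 and 9.64 in control clones 1, 2 and 3 and at 9.31, 9.48 and 9.32 in the knockdown clones. The groups did not overlap, and the gap between control clone 3 and the highest knockdown clone, number 2, was small beside the distance of 0.87 between control clones 1 and 3. The log2 fold change was -0.70 (SE 0.20, 95% interval -1.17 to -0.23; limma, adjusted p = 0.361). MT1X ranked 412 by p among all genes. An exact two-sided permutation test of its 6 values gave 0.1, the smallest p that 3 against 3 clones allows.

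MT1G, the member whose promoter methylation is known from prostate cancer, was measured at 11.30, 10.88 and 10.36 in control clones 1, 2 and 3. Its values were 10.28, 10.45 and 10.25 in the knockdown clones, so that control clone 3 again fell within the knockdown range. The means were 10.84 ± 0.47 and 10.33 ± 0.11 (SD, n = 3 each). The log2 fold change was -0.52 (SE 0.22; limma, adjusted p = 0.519).

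MT1F, another MT1 gene of the cluster's distal part, varied most among the controls. It stood at 10.14, 9.09 and 8.34 in control clones 1, 2 and 3, a 3.49-fold span, while the knockdown clones were at 8.63, 8.69 and 8.71, a 1.06-fold span. Control clone 3 was lower than any knockdown clone, and control clones 1 and 2 were higher than all of them. The group means were 9.19 ± 0.91 and 8.68 ± 0.04 (SD, n = 3 each). The log2 fold change of -0.51 had an interval from -1.42 to 0.40 (SE 0.39; limma, adjusted p = 0.743).

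**Figure D1:**
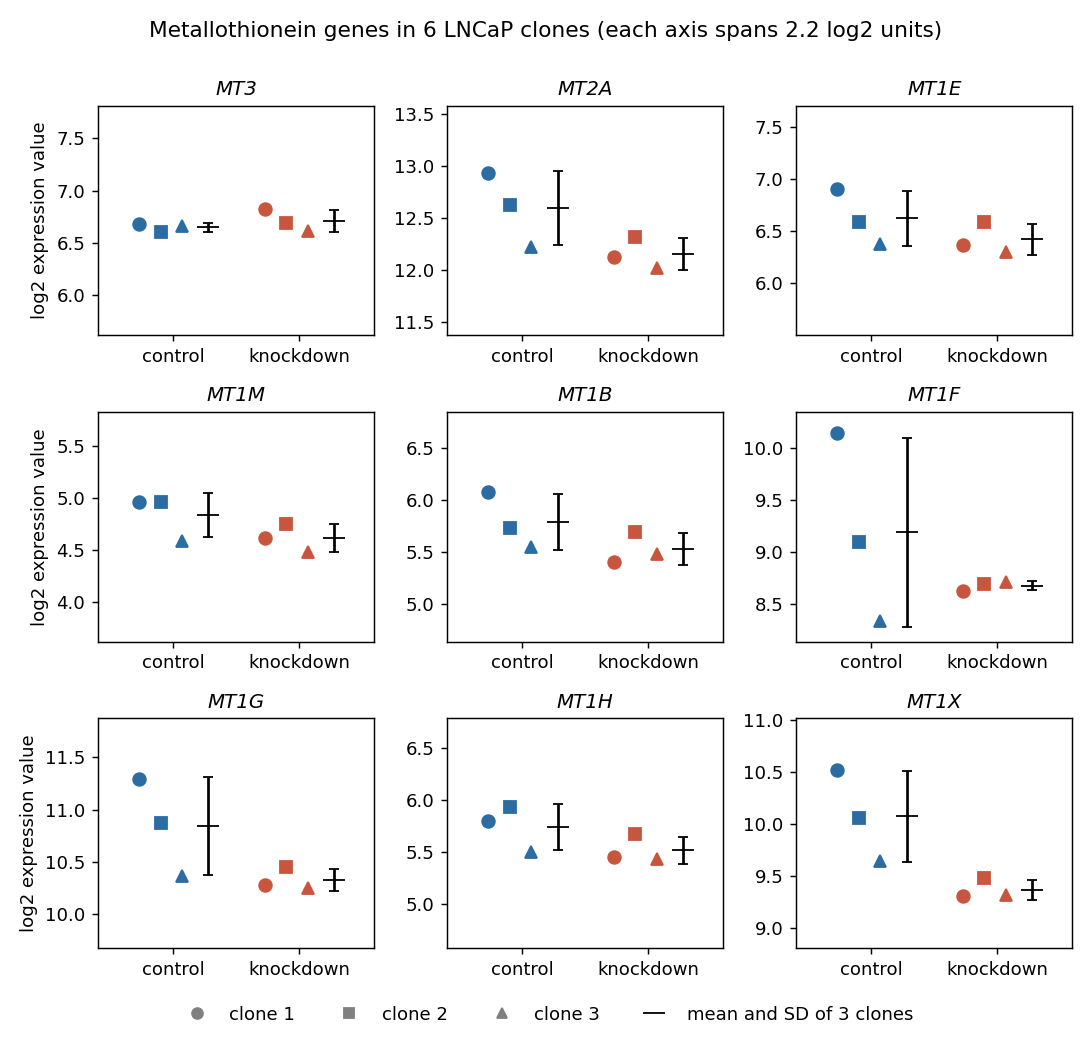
Log2 expression values of the 9 metallothionein genes in each clone (blue, scrambled control; red, MBD2 knockdown; marker shape, clone number), with the mean and SD of each group of 3 in black. In MT2A, MT1G, MT1X and MT1F control clone 1 is the highest array and control clone 3 is the control closest to the knockdown mean. It lies above all knockdown clones in MT1X and below all of them in MT1F. MT3 shows little spread.

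The remaining MT1 genes, MT1E, MT1M, MT1B and MT1H, had weaker signals and smaller differences. MT1E was measured at 6.90, 6.59 and 6.38 in control clones 1, 2 and 3 and at 6.37, 6.59 and 6.30 in the knockdown clones. MT1B was measured at 6.07, 5.73 and 5.55 in the controls and at 5.41, 5.70 and 5.48 in the knockdown clones. In both genes control clone 1 stood above the other 5 arrays, and the rest of the 2 groups overlapped. MT1M had 4.96, 4.96 and 4.59 in the controls and 4.62, 4.75 and 4.48 in the knockdown clones, close to the lower quartile of the arrays. MT1H had 5.79, 5.93 and 5.50 in the controls and 5.45, 5.67 and 5.43 in the knockdown clones. In these 2 genes control clones 1 and 2 lay above all knockdown clones and control clone 3 among them. Log2 fold changes of the 4 genes ran from -0.26 for MT1B to -0.20 for MT1E, each with an interval that included 0.

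MT3, the brain form, lies at the proximal end of the cluster. It was measured at 6.68, 6.60 and 6.66 in control clones 1, 2 and 3 and at 6.83, 6.69 and 6.61 in the knockdown clones. Its controls spanned 0.08, less than in most genes (percentile 12.4 of all genes), and its log2 fold change was 0.06 with an interval of -0.14 to 0.26 (limma, adjusted p = 0.869). No shared order of clones with the other 8 members was seen.

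The differences between control clones had the same order in most members. Control clone 1 was above control clone 2 and clone 2 above clone 3 in 7 of the 9 genes, all but MT3 and MT1H, against 20.6% of all genes. In MT1M control clones 1 and 2 were nearly equal. Control clone 1 held the highest of the 6 values in 7 of the 8 members other than MT3, and control clone 2 in MT1H. The range over the controls exceeded 0.5 log2 units in 6 of the 9 members, against 7.44% of all genes, and the median range over all genes was 0.192. MT1F ranked 42 and MT1G 242 by this range among 16704 genes. The members belong to a family of near-identical genes that lie side by side, so their features were not counted as independent observations, and probe sequences were not examined.

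The knockdown clones were closer together. In 8 of the 9 members, all but MT3, the controls spanned a wider range than the knockdown clones, which held for 38.9% of all genes. Control clone 3 lay within the range of the knockdown clones in 7 of 9 members, all but MT1F and MT1X, against 50.6% of all genes. Averaged over the 8 members other than MT3, which were set apart after the values were seen, control clones 1, 2 and 3 stood at 0.37, 0.02 and -0.39 relative to the control mean. Knockdown clones 1, 2 and 3 stood at -0.44, -0.25 and -0.46 on the same scale. The averages of all knockdown clones thus lay near that of control clone 3, and knockdown clone 2 was above it.

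**Figure D2:**
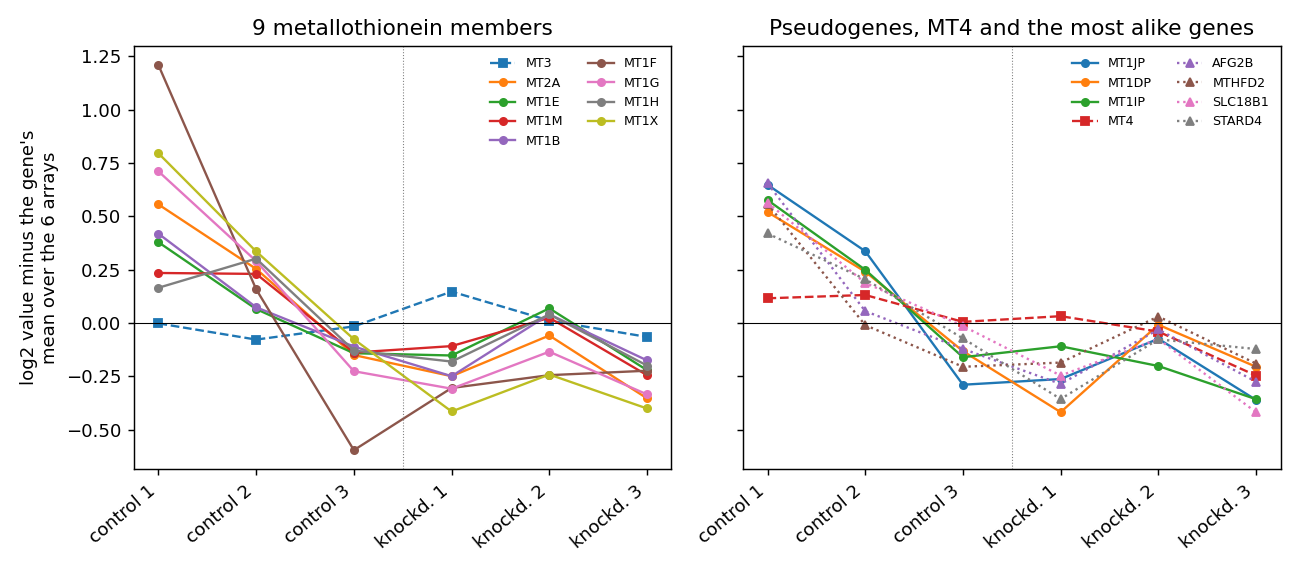
Log2 values minus each gene's mean over the 6 arrays, for the 9 members (left) and for 3 MT1 pseudogenes, MT4 and the 4 most alike genes outside the family (right). Lines join the arrays of 1 gene to guide the eye and imply no order. Control clone 1 is high in 8 of the 9 members, and MT3 stays within 0.15 of its mean.

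The size of the group difference turned on which control clones entered the fit. Without control clone 1 the median log2 fold change of the 9 members was -0.16, and MT1F stood at -0.04 and MT1E at -0.06. Without control clone 3 the median was -0.37, and MT1F stood at -0.94, MT1X at -0.92 and MT1G at -0.76. In that fit 7 members were lower at an unadjusted p under 0.05, where 4.17% of all genes were, but none passed the adjusted threshold in limma (smallest adjusted p = 0.456). In the fit without control clone 1 it was 1 member, MT1X, against 4.74% of all genes. The other fits gave 1 member without control clone 2 (3.91% of all genes), 1 without knockdown clone 1 (9.12%), 2 without knockdown clone 2 (4.07%) and 1 without knockdown clone 3 (3.6%). Leaving out a knockdown clone gave medians between -0.34 and -0.22. MT1X was lower at an unadjusted p under 0.05 in all 6 of these fits, with log2 fold changes between -0.92 and -0.48.

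**Figure D3:**
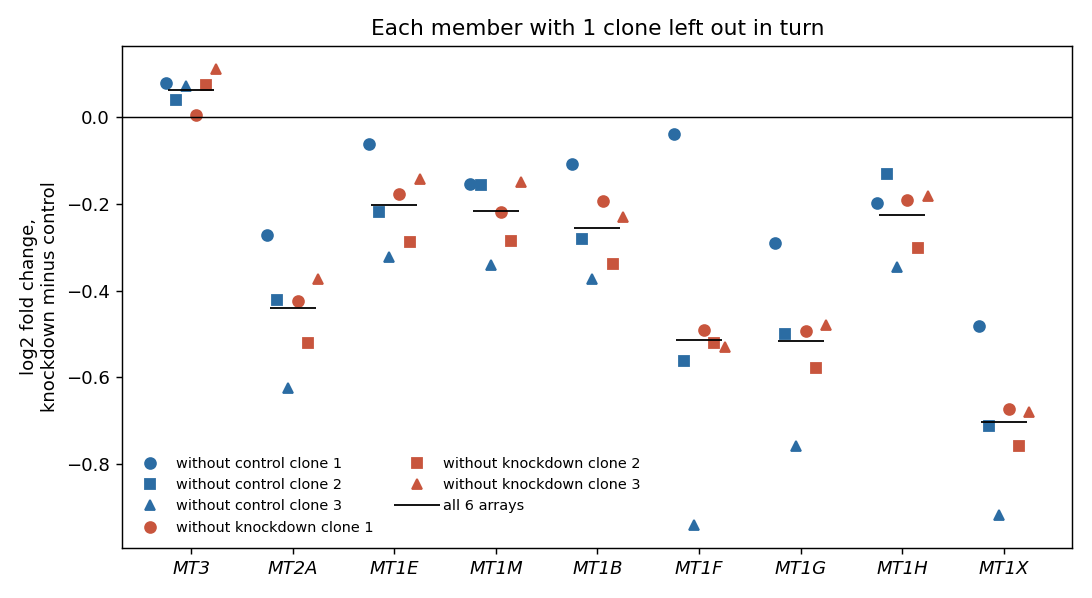
Log2 fold change of each member (knockdown minus control) with 1 clone left out (symbols) and with all 6 arrays (black bars). Leaving out control clone 1 or control clone 3 moves MT1F from -0.04 to -0.94, whereas leaving out knockdown clones moves it little.

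Metal response elements were found upstream of every member whose promoter could be read. RefSeq promoter sequences (GRCh38.p14) were at hand for 4 of the 9 members, and the 250 bases before each gene start are shown because they hold the sites through which metals are known to act on these genes. They are chr16:56608334-56608583 for MT2A, chr16:56651636-56651885 for MT1B, chr16:56669564-56669813 for MT1H and chr16:56682220-56682469 for MT1X, all on the plus strand. Capitals mark matches to the core of the metal response element, TGCACNC or TGCGCNC, on either strand, so that a match on the opposite strand reads as its reverse complement.
MT2A: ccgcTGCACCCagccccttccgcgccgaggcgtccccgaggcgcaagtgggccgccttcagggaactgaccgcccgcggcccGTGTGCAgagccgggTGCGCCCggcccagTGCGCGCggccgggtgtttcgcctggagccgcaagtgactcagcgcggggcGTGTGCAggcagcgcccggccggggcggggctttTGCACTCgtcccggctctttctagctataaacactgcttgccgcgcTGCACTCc
MT1B: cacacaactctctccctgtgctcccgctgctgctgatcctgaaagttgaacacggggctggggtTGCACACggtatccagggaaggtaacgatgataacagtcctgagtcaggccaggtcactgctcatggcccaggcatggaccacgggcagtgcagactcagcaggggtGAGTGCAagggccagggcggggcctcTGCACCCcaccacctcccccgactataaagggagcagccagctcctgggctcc
MT1H: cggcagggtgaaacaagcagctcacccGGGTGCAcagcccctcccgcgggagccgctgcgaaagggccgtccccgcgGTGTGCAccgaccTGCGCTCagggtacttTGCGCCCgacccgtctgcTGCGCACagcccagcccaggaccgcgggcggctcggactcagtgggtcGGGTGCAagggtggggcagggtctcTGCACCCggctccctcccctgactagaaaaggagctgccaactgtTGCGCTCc
MT1X: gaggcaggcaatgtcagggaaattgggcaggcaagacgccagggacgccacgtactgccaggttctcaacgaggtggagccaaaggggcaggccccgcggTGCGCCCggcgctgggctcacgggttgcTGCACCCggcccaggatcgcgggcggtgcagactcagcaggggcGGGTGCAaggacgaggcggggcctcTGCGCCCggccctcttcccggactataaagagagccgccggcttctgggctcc

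There were 8 matches in MT1H, 7 in MT2A, 4 in MT1X and 3 in MT1B. Of 27305 RefSeq promoters of the same length, 24.7% held at least 1 match. At least as many as in MT1B were found in 1.56% of promoters, and at least as many as in MT1X in 0.366%. For MT2A this share was 0.033% and for MT1H 0.0183%, with the promoters of these 4 genes counted in. A match between positions -54 and -47, counted back from the gene start, was present in all 4, with a second one on the opposite strand between -88 and -72. MT1H, with 8 matches, had a log2 fold change of -0.23, and MT2A, with 7, had -0.44. MT1X, with 4, had -0.70, and MT1B, with 3, had -0.26. A relation between the number of matches and the size of the difference was not tested. A match is a description of the sequence and not a measured binding site.

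Other motifs separated the 4 promoters. An AP-1 match (TGANTCA, which reads the same on both strands) was found in MT2A and MT1B, and in 6.6% of all promoters. A GC box (GGGCGG, either strand) was present in all 4, against 42.3% of promoters, and 1 of the 2 in MT1X overlaps a metal response element. A TATA box (TATAAA, either strand) was found in MT2A, MT1B and MT1X, against 11.1%. CpG dinucleotides, the letters that MBD2 binds when methylated, numbered 32 in MT2A, 22 in MT1H, 22 in MT1X and 7 in MT1B, with a median of 11 over all promoters. Aligned end to end, the 3 MT1 promoters were 62.3% to 63.7% identical to each other and 54.0% to 55.3% identical to that of MT2A.

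**Figure D4:**
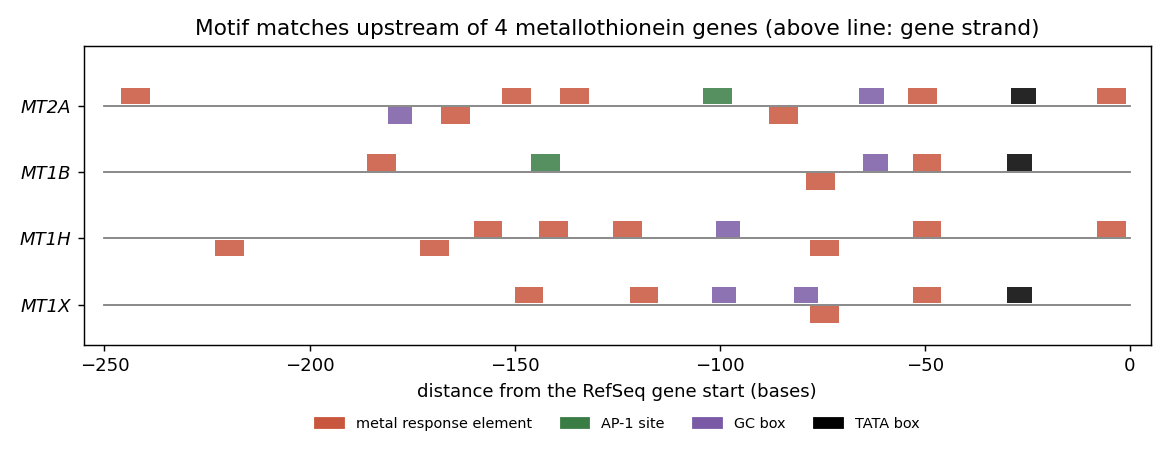
Positions of motif matches in the 250 bases before the RefSeq gene start of 4 members (boxes above the line, gene strand; below, opposite strand; width to scale). Metal response elements (red) number 7, 3, 8 and 4 from top to bottom, and all 4 genes have one between -54 and -47.

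The MT1 pseudogenes inside the cluster were also highest in control clone 1, with control clone 2 next. MT1JP was measured at 5.75, 5.44 and 4.81 in control clones 1, 2 and 3 and at 4.84, 5.02 and 4.74 in the knockdown clones. MT1DP had 8.34, 8.06 and 7.68 in the controls and 7.40, 7.81 and 7.61 in the knockdown clones. MT1IP had 6.62, 6.29 and 5.88 in the controls and 5.93, 5.84 and 5.68 in the knockdown clones. Their log2 fold changes were -0.46, -0.42 and -0.44, none past the adjusted threshold (limma, smallest adjusted p = 0.503). Pseudogene and gene share most of their sequence, so which of them these features measure is uncertain, as it is between the MT1 members.

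Differences were smaller in most genes that flank the stretch. MT4, a metallothionein of stratified epithelium that lies just beyond MT3, stood at 5.56, 5.58 and 5.45 in the controls and at 5.48, 5.41 and 5.20 in the knockdown clones. Over the 20 measured genes that flank the cluster, 10 on each side, 13 were lower and 7 higher. Their median difference was -0.07, with 0 past the adjusted threshold in limma. At an unadjusted p under 0.05 there were 2 of them, 1 lower and 1 higher, against 9.39% of all genes. NUP93, a nuclear pore protein gene and the first beyond MT1X, was the lower one, with 8.45, 8.59 and 8.50 in the controls and 8.36, 8.03 and 8.06 in the knockdown clones (log2 fold change -0.36). Its controls lay close together, unlike those of the members other than MT3. All its knockdown clones lay below the controls, as in 8.87% of all genes. The higher one, PLLP, which codes for a membrane proteolipid and was picked after its values were seen, had 0.42. BBS2, of the ciliary BBSome complex, and SLC12A3, a sodium chloride cotransporter gene, had log2 fold changes of 0.03 and -0.09.

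**Figure D5:**
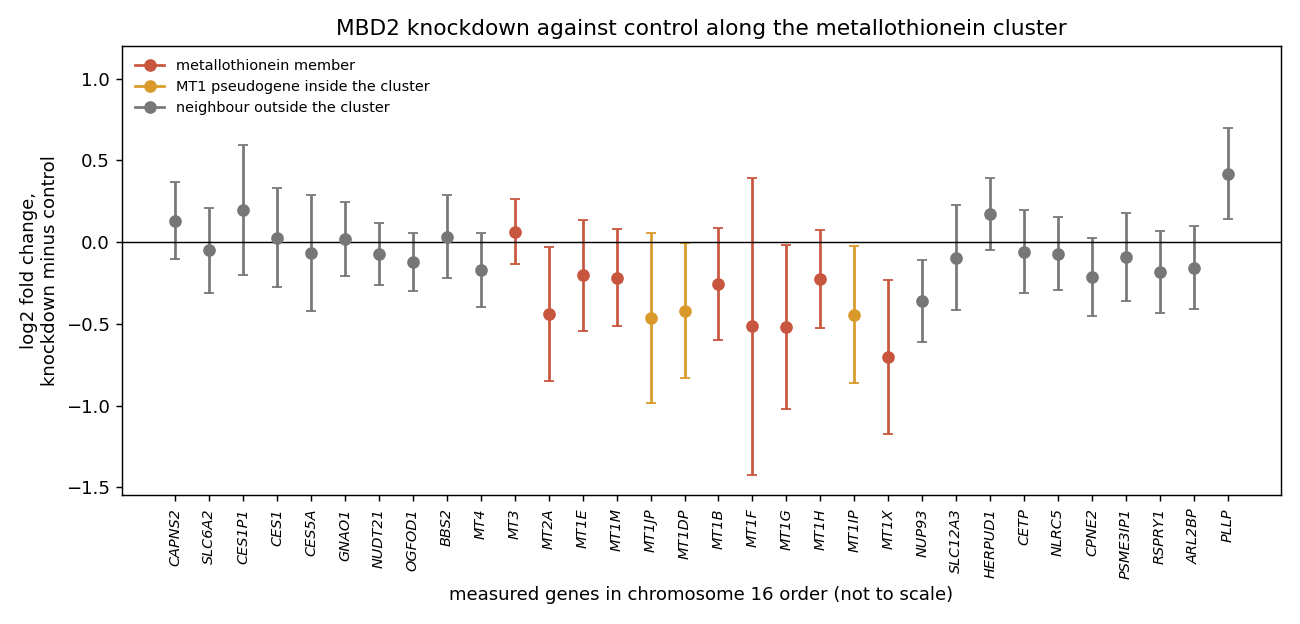
Log2 fold changes (knockdown minus control, points) with 95% intervals from limma (bars) for the 9 members (red), 3 pseudogenes (yellow) and 10 flanking genes on each side (grey), in chromosome order. From MT2A to MT1X all points lie between -0.70 and -0.20. Intervals include 0 in most flanking genes, and also in MT3, MT1E, MT1M, MT1B, MT1F, MT1H and the pseudogene MT1JP.

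Genes with the most similar pattern were picked from these same values, so some close matches would be found in any case. The profile of the 6 members with a mean above the median of all genes was compared with 1897 other genes of at least that signal and an SD of at least 0.2, by the root mean square difference of centred log2 values over the 6 arrays. The 5 most alike were AFG2B, an AAA-type ATPase gene (0.07), MTHFD2, a mitochondrial enzyme of folate metabolism (0.10), SLC18B1, a vesicular polyamine transporter (0.10), the pseudogene MT1DP (0.11) and STARD4, a sterol transfer protein gene (0.13). AFG2B was measured at 7.41, 6.81 and 6.64 in control clones 1, 2 and 3 and at 6.47, 6.73 and 6.48 in the knockdown clones. Among the members themselves MT2A was closest to the profile (0.06) and MT3 farthest (0.33), although both belong to the 6 that form it. MT1F, also of these 6, was nearly as far (0.30). The pseudogenes MT1IP (0.08) and MT1JP (0.09) were close to the profile too, but their signal was too low to enter the search. These are descriptions over 6 arrays of 2 groups.

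RNA of the metal sensor MTF1 did not share the pattern. It stood at 9.51, 9.68 and 9.75 in control clones 1, 2 and 3 and at 9.74, 9.53 and 9.61 in the knockdown clones, with the lowest value in control clone 1 and an overlap of the groups. Its log2 fold change was -0.02 with an interval of -0.25 to 0.21 (limma, adjusted p = 0.968), and the sign turned under quantile normalization and cyclic loess. SLC30A1, a zinc exporter that MTF1 is known to induce together with the metallothioneins and that was picked after its values were seen, had 6.90, 7.18 and 7.04 in the controls and a mean of 6.96 ± 0.04 (SD, n = 3) in the knockdown clones. The lowest SLC30A1 value was in control clone 1, close to the 6.92 of knockdown clone 1, and the groups overlapped. SLC30A1 is 1 gene picked from its values, and whether MTF1 activity differed between the clones was not tested.

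Zinc and copper transport genes were spread around 0. Of 11 genes in the zinc exporter list, the SLC30 family taken by name and TMEM163, 8 were lower and 3 higher, with a median of -0.05. SLC30A4 had a log2 fold change of -0.33 (control 10.01 ± 0.04, knockdown 9.68 ± 0.27; SD, n = 3 each), SLC30A9 -0.16 and SLC30A10 0.15. Of 14 zinc importers of the SLC39 family 8 were lower and 6 higher, with a median of -0.02, and SLC39A2, with a signal under the lower quartile, had 0.21, SLC39A8 -0.13 and SLC39A4 0.26. Of 11 measured copper handling genes 7 were lower and 4 higher with a median of -0.08, and the cytochrome oxidase assembly genes SCO1, COX11 and SCO2 had -0.11, -0.12 and -0.10. No member of these 3 lists passed the adjusted threshold in limma. At an unadjusted p under 0.05 there were 1 lower exporter of 11, 1 higher importer of 14 and 0 copper genes of 11, near the 9.39% of all genes at that level in either direction.

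In the list of metal and oxidative stress genes 11 of 15 measured members were lower, with a median of -0.12. GCLM, the regulatory subunit of glutamate-cysteine ligase in the glutathione pathway, had a log2 fold change of -0.56 (control 7.97 ± 0.05, knockdown 7.40 ± 0.12; SD, n = 3 each). NQO1, a quinone reductase, had -0.59 (control 9.62 ± 0.25, knockdown 9.03 ± 0.09). It stood at 9.91, 9.49 and 9.46 in control clones 1, 2 and 3, the order of most metallothioneins and of 20.6% of all genes. DNAJB1, a heat shock co-chaperone, had a log2 fold change of 0.23. GCLM, NQO1 and DNAJB1 were named for the smallest p of the list, a choice that favours groups without overlap. Their groups did not overlap, as in 15.4% of all genes, and no conclusion is drawn from it. The adjusted p of these 3 genes in limma lay between 0.229 and 0.398. At an unadjusted p under 0.05 4 of the 15 differed, against 9.39% of all genes. Of these 3 were lower, against 5.45% of all genes, the third being the co-chaperone gene BAG3 at -0.25, named after its value was seen. Of 11 measured steroid-induced genes 9 were lower and 2 higher, with a median of -0.12. The higher ones were TSC22D3, a leucine zipper gene induced by glucocorticoids, with 1.10 and NDRG1, a stress and androgen response gene, with 0.82, and CEBPD, a transcription factor gene, had -0.22. No member of either list passed the adjusted threshold in limma, and at an unadjusted p under 0.05 the steroid list had 3 of 11, 2 higher and 1 lower, against 9.39% of all genes.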

How the data were processed

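Cytoplasmic RNA of 3 scrambled control and 3 MBD2 knockdown LNCaP clones was measured on 6 arrays. The deposited table holds log2 values made with RMA, per the submitters' processing notes, which also name oligo and limma. Their versions, and any filters, are not given in these sources. The log2 scale was taken from the range of the values. They were used as deposited. Of 19712 features 17334 had 1 gene symbol in the platform annotation, 1521 several and 857 none listed. A gene with several features was represented by the one of highest mean, giving 16704 genes.

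Groups were compared with limma 3.58.1 (lmFit, eBayes; R 4.3.3), without covariates, with p adjusted by Benjamini-Hochberg over all genes. Log2 fold changes are knockdown minus control. P-values weigh the group difference against the spread between these clones, which limma moderates over all genes. The fit was tested on simulated data with known changes. Motifs were searched in Python 3.11.15.

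The members and lists were chosen with earlier results of these data known. Named are the 9 members, MBD2, MTF1, up to 3 genes of each list by p, the 2 nearest neighbours on either side, genes inside the cluster, and the 5 genes most alike in pattern. BAG3, COL1A1, MT1P3, PLLP, SLC30A1 and the feature with MT1L were named after their values were seen. Alternatives were other scalings, a filter on dim genes, trend and robust settings, array weights, a replicate block, the mean of features, all features, each clone left out and an adjusted p under 0.1. Averaging knockdown clones 2 and 3 was added after the data were seen.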

Additional observations from a re-analysis of the deposited data

How the results depend on the processing

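No metallothionein passed an adjusted p of 0.05 under any alternative, and no member changed sign. In the main fit, with no alternative applied, none passed an adjusted p of 0.1. The smallest adjusted p outside the fits with a clone left out was 0.0906, for MT1X with array weights. The median of the 9 ran from -0.37 to -0.16 with 1 clone left out, and was -0.35 without the dimmest 30% of genes, which drops MT1M and leaves 7 lower, and -0.16 with array weights. Replicate numbers did not pair the clones (correlations of same-numbered deviations -0.03, -0.19 and 0.17). With the replicate block 0 genes passed, MBD2 stayed at -1.28 and the median at -0.26.

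Over all genes 1 passed after quantile normalization, 1 after cyclic loess and 325 with array weights. The weights ran from 0.252 for knockdown clone 1 to 3.43 for knockdown clone 2. There were 2 genes at an adjusted p under 0.1, and 0 to 70 with 1 clone left out (7 without control clone 1, 70 without knockdown clone 1). MBD2 passed with array weights (-1.27) and without control clone 1 or knockdown clone 1, and ranged from -1.44 to -1.19 with 1 clone left out. MTF1 turned to 0.023 after quantile normalization, 0.030 after cyclic loess and 0.0068 with knockdown clones 2 and 3 averaged, where BBS2 turned to -0.0073. With 1 clone left out MTF1 ranged from -0.090 to 0.027, BBS2 from -0.044 to 0.12 and SLC12A3 from -0.23 to 0.045. Why these values moved was not tested.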

Other observations

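Like MT1H, a further metallothionein pseudogene, MT1P3, had its highest value in control clone 2. It lies on chromosome 20, outside the cluster. Its log2 values were 5.18, 5.25 and 4.82 in control clones 1, 2 and 3 and 4.68, 4.85 and 4.52 in the knockdown clones, with a log2 fold change of -0.40 (limma, adjusted p = 0.438). The feature whose annotation gives MT1L beside NUTF2 stood at 8.39, 8.10 and 7.74 in the controls and at 7.65, 7.73 and 7.69 in the knockdown clones. All 3 controls lay above the knockdown clones there, control clone 3 by the least, as the controls did in 8.87% of all genes. Its log2 fold change was -0.39 (limma over all features, adjusted p = 0.484).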
